A study of Arabidopsis thaliana with 6 samples.

Results

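The autonomous flowering pathway of Arabidopsis thaliana was followed through its 7 classical genes, FCA (AT4G16280), FPA (AT2G43410), FLK (AT3G04610), FY (AT5G13480), FVE (AT2G19520), FLD (AT3G10390) and LD (AT4G02560), in plants mutant for gemin2 and in the Col wild type (WT). The members were chosen by locus, as the genes by which the pathway is known, and all 7 were found among the 33602 loci of the gene count table. They carry 8 of the 7973 annotated splicing bins (stretches of a gene that are exon in some transcripts and intron in others) and 29 of the 65535 introns used here. The gemin2 group had 3 libraries of gemin2 mutants and the WT group 3 libraries of Col. All came from whole plants aged 9 days that had been sown on agar medium, chilled in the dark and then grown at 22 °C under constant light. The headings of the authors' deposited tables call the mutant gemin2-1. The labels name no other genetic change, and describe the source as a mixture of tissues. GEMIN2 is a protein of the complex that loads Sm proteins onto spliceosomal small nuclear RNAs.

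The autonomous pathway lets Arabidopsis flower without regard to day length by keeping FLC, a MADS-box repressor of flowering, at a low level. FCA, FPA, FLK and FY act on RNA: the first 3 bind it, and FY belongs to the machinery that cuts and polyadenylates transcript 3' ends. FVE, FLD and LD are nuclear proteins, FVE being a WD-repeat protein found with histone deacetylases, FLD a relative of a human histone demethylase, and LD a homeodomain protein. Loss of any of them raises FLC and delays flowering, and FCA and FPA also limit their own messenger RNA through early polyadenylation inside an intron.

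Reads assigned to genes numbered 15467372, 17217408 and 16543178 in the gemin2 libraries A, B and C, and 14051562, 16732098 and 14049163 in the WT libraries. The letters are those of the deposited columns, and whether equal letters mark paired libraries is unknown. GEMIN2 had 71, 77 and 74 reads in gemin2 and 239, 262 and 221 reads in WT, a log2 fold change of -1.82 (edgeR's quasi-likelihood test, Benjamini-Hochberg adjusted p = 4.46e-09). Reads of ribosomal RNA loci made up 0.551% to 0.787% of gene reads in gemin2 and 0.230% to 0.461% in WT. Of the markers of organs present in whole plants, summed levels in CPM (reads scaled to a common library size) were 31990 to 34150 in gemin2 and 28150 to 30090 in WT for 3 leaf genes, and 167.9 to 179.0 in gemin2 and 148.6 to 159.3 in WT for 4 root genes. The shoot apex list stood at 2.40 to 4.63 CPM in gemin2 and 1.26 to 1.96 CPM in WT, with STM, a meristem identity gene, higher in gemin2 by 1.14 on the log2 scale (edgeR's quasi-likelihood test, Benjamini-Hochberg adjusted p = 0.00392) and the meristem genes WUS and CLV3 at or near 0 in both. Summed flower markers lay at 1.51 to 2.22 CPM in gemin2 and 1.75 to 1.84 CPM in WT, and seed markers at 0.492 to 7.82 CPM in gemin2 and 0.491 to 9.79 CPM in WT. Within the lists leaf and root genes moved both ways: CAB1, SCR and PHO1 were higher in gemin2, while CA1 and the root hair gene RHD6 were lower. The call of PHO1 was lost without gemin2 B (adjusted p = 0.0602). The part of organ make-up in the results that follow was not tested, and in whole plants fewer cells of a type and less RNA per cell cannot be told apart. No label states whether libraries of 1 genotype were separate cultures, and the spread behind each p-value may therefore be technical.

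The introns that the results turn on are introduced by their splice sites, because GEMIN2 serves the spliceosome and the first intron bases pair with its U1 small nuclear RNA. FLK I006 lies at chr3:1254283-1254768 in the 5' untranslated region of FLK, and FLK I005 at chr3:1252404-1253573 in the coding region. FPA I001 and E004 lie side by side at chr2:18025561-18026358 and together form an annotated intron of the FPA 3' untranslated region in 2 of the 6 RefSeq transcripts, while E004 is also annotated as an intron of its own. LD E014 lies at chr4:1128269-1128381 in the 5' untranslated region of LD, and FCA E022 at chr4:9211512-9213586 is the large intron in which early polyadenylation of FCA is known to occur. All are on the minus strand, with coordinates of the deposited tables on TAIR10. In the 5' splice site windows, read 5' to 3' from the RefSeq TAIR10.1 sequence, capitals mark the first 6 intron bases after 5 exon bases:
FLK I006: accacGTAATTtcactgggt
FLK I005: gagctGTGAGTctctaaatc
FPA I001+E004: tcaagGTAATTatctcttct
LD E014: attagGTAACCatgttcatt
FCA E022: gcaagGTATGTcaatctcca
In the 3' splice site windows capitals mark the last 3 intron bases before 5 exon bases:
FLK I006: ggactctgaatttatgtCAGcgctc
FLK I005: ttgtttcctctttgtcgCAGgttat
FPA I001+E004: gctgttttgaaattgtgTAGgtgat
FPA E004: cttgttgacatatgataAAGcatgt
LD E014: tttgcgtattggtcttcGAGttttc
FCA E022: agtatcagtctttaatgCAGgctgt
FLK I006 and the FPA intron share the start GTAATT, which 2.71% of 136049 RefSeq introns carry, against 9.09% for the commonest start, GTAAGT. The start GTAACC of LD E014 is found in 0.482% and the GTATGT of FCA E022 in 4.40%. FPA E004 and LD E014 end in AAG and GAG, where the other introns end in CAG or TAG. These are descriptions of the sites, and no link between them and the values was tested.

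Among the RNA-acting members FLK rose in gemin2 by a factor of 1.75, FCA rose by 17.4%, FPA fell by 18.4%, and FY did not pass the test. FLD, a chromatin member, rose by 13.9%, and FVE and LD did not pass. In all, 3 of the 7 genes were higher, 1 was lower and 3 did not pass the adjusted threshold of 0.05, in an experiment in which 36.7% of 20762 tested genes passed, 17.8% higher and 18.9% lower in gemin2. The median log2 fold change was 0.16 over the 7 members and -0.0011 over all genes tested. The libraries of the genotypes did not overlap in CPM for 5 of the 7 members, and this held for 48.1% of all tested genes.

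FLK encodes an RNA-binding protein with KH domains that lowers FLC. It had 1323, 1503 and 1438 reads in gemin2 and 740, 795 and 711 reads in WT. Its level was 86.2, 87.0 and 88.5 CPM in gemin2, and 51.9, 47.2 and 50.9 CPM in WT. Every gemin2 library stood far above every WT library, and the spread within each genotype was small beside the gap. FLK averaged 87.2 ± 1.16 CPM in gemin2 and 50.0 ± 2.49 CPM in WT (SD, n = 3 each). This is a log2 fold change of 0.80 (SE 0.0509, by edgeR's quasi-likelihood test, Benjamini-Hochberg adjusted p = 2.54e-08). Of all tested genes 5.54% had a larger absolute log2 fold change. The authors' deposited list of 1226 changed genes holds FLK, with a log2 change of 0.80, and none of the other members. That list is much shorter than the 7626 genes called here, so absence from it is not read as disagreement.

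FPA encodes an RNA-binding protein of the SPEN family that promotes early polyadenylation, at its own transcript too. Its level was 39.3, 37.6 and 37.9 CPM in gemin2, and 49.1, 46.6 and 45.0 CPM in WT. The genotypes did not overlap, and FPA was the only member with all gemin2 libraries below WT. FPA averaged 38.3 ± 0.928 CPM in gemin2 and 46.9 ± 2.07 CPM in WT (SD, n = 3 each), with a log2 fold change of -0.29 (SE 0.0552, by edgeR's quasi-likelihood test, Benjamini-Hochberg adjusted p = 0.00072). At its 3' end FPA overlaps ETFQO on the other strand by 46 bp. The long noncoding RNA gene AT2G09470, also on the other strand, overlaps FPA by 412 bp. The library kit marked no strand, so reads from these stretches cannot be told apart.

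FCA encodes an RNA-binding protein that works with FY. Its level was 33.5, 31.5 and 34.9 CPM in gemin2, and 29.5, 28.2 and 27.4 CPM in WT. All gemin2 libraries lay above all WT libraries, with a gap of about the spread within a genotype. The log2 fold change was 0.23 (SE 0.0616, edgeR's quasi-likelihood test, Benjamini-Hochberg adjusted p = 0.00826). FY, the partner of FCA in the cleavage and polyadenylation complex, had 22.5, 24.2 and 23.3 CPM in gemin2 and 21.8, 19.6 and 21.6 CPM in WT. Its libraries also did not overlap, but the log2 fold change of 0.16 (SE 0.0679) did not pass (Benjamini-Hochberg adjusted p = 0.0822 in edgeR's quasi-likelihood test).

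FLD, the demethylase-like chromatin protein, had 24.3, 24.7 and 24.7 CPM in gemin2 and 21.2, 21.4 and 22.1 CPM in WT. The libraries of each genotype were close together and did not overlap. Its log2 fold change was 0.19 (SE 0.0607, edgeR's quasi-likelihood test, Benjamini-Hochberg adjusted p = 0.0241), a call that was lost in DESeq2 and in 4 of the 6 fits that left out a library, with values in the section on processing. FVE had 81.7, 78.8 and 81.5 CPM in gemin2 and 73.4, 71.0 and 80.6 CPM in WT. WT C lay within the gemin2 range, and the log2 fold change of 0.11 (SE 0.0534) did not pass (Benjamini-Hochberg adjusted p = 0.133 in edgeR's quasi-likelihood test). It passed at 0.16 when WT C was left out (adjusted p = 0.0251), and in none of the other 12 alternatives. LD, the homeodomain member, had 32.4, 31.7 and 29.6 CPM in gemin2 and 31.7, 30.7 and 32.2 CPM in WT. Its genotypes overlapped fully, at a log2 fold change of -0.01 (SE 0.0593) and an adjusted p of 0.899 in edgeR's quasi-likelihood test. Of all tested genes 96.2% had a larger absolute log2 fold change than LD.

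**Figure D1:**
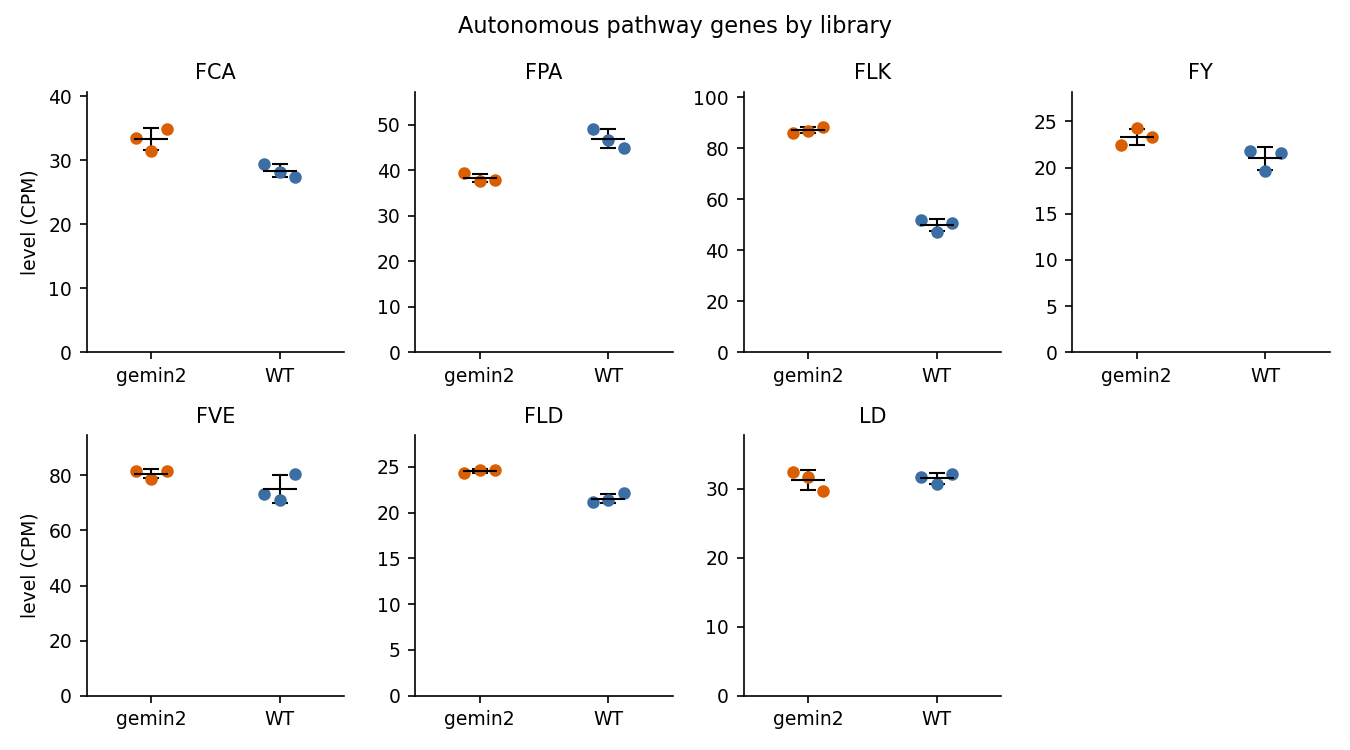
Level in CPM of each member in each library, gemin2 at the left (orange) and WT at the right (blue), with the mean as a bar and the SD as whiskers (n = 3 each). FLK stands at 86.2 to 88.5 CPM in gemin2, clear of the 47.2 to 51.9 CPM in WT, while LD overlaps.

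Per kilobase of annotated exon, the order of the members by level differed between the genotypes in the distance between neighbours. In gemin2, FVE averaged 42.8 and FLK 42.4 CPM per kb, and their libraries overlapped. In WT, FVE averaged 39.8 and FLK 24.3 CPM per kb, with every library of FVE above every library of FLK. The other 5 genes were much lower in both genotypes.

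Below them in gemin2 came FPA at 10.045, LD at 9.77, FLD at 9.24 and FY at 9.01 CPM per kb, each overlapping its neighbour in that order, and FCA at 6.43 CPM per kb, below all libraries of FY. In WT the order was the same, with FPA at 12.3, LD at 9.86, FLD at 8.12, FY at 8.10 and FCA at 5.47 CPM per kb. There only FLD and FY overlapped. The exon length deposited for FCA includes the 2075 bp of E022, which lowers its level per kilobase relative to the others.

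The splicing of the members was next compared relative to each gene's own reads, so that a gene that is higher as a whole does not count as changed. Of the 29 introns 5 had enough reads to be tested, and FLK I006, in the 5' untranslated region, rose in gemin2. None of the 7 testable bins passed, and FPA and LD held the bins with the smallest p. The share of all tested features that passed was 9.42% for introns (5.95% higher and 3.46% lower in gemin2) and 4.71% for bins (2.6% higher and 2.11% lower). Introns of FCA, FY and LD lie on chromosomes that the intron table used here does not reach and were not analysed here. The bin FY E018 had no reads in any library.

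FLK I006 is 486 bp long and is spliced out in 2 of the 4 RefSeq transcripts of FLK and kept as exon in the other 2. It had 133, 153 and 130 reads in gemin2, and 43, 32 and 32 reads in WT. Its read density, the reads per base of the intron as a percentage of the reads per exon base of the gene, was 42.6%, 43.1% and 38.3% in gemin2, and 24.6%, 17.04% and 19.1% in WT. The genotypes did not overlap, and the mean density was 41.3 ± 2.64% in gemin2 and 20.2 ± 3.92% in WT (SD, n = 3 each). Non-overlap of reads relative to the gene was found for 28.9% of all tested introns.

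Relative to FLK as a whole, I006 was higher in gemin2 by a log2 change of 1.03 (SE 0.158, edgeR's quasi-likelihood test with the gene's reads as offset, Benjamini-Hochberg adjusted p = 0.000896). Without the offset, which adds the change of the gene itself, the log2 fold change was 1.83 (adjusted p = 1.03e-05). The call was lost with DESeq2 (adjusted p = 0.172). In the authors' deposited table I006 has a log2 change of 1.92, headed as a change of the bin, and a log splicing index ratio of 1.12, whose base the heading does not give. The retained sequence holds 10 ATG triplets and has a GC content of 32.5%. Taking the reads of all FLK introns off the gene's count left its log2 fold change at 0.75, against 0.80 as deposited; this alternative was chosen after seeing the data, and whether the deposited gene counts include intron reads is not given in the sources used here.

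FLK I005, the longest FLK intron at 1170 bp, lay in the other direction. It had 31, 45 and 31 reads in gemin2 and 30, 31 and 28 reads in WT, while reads of FLK as a whole were higher in gemin2. Its density was 4.12%, 5.27% and 3.79% in gemin2, and 7.13%, 6.86% and 6.93% in WT, again with no overlap. The log2 change relative to the gene was -0.66 (SE 0.200), with an unadjusted p of 0.00542 and an adjusted p of 0.0544 in edgeR's quasi-likelihood test with Benjamini-Hochberg adjustment, just outside the threshold of 0.05. With no gene offset it was 0.14 and did not pass (adjusted p = 0.715), which does not show that the intron's own reads were equal. What lies behind the lower density was not tested.

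The other 4 FLK introns had too few reads for a test. Summed over all 6 FLK introns there were 12.5, 13.6 and 11.8 intron reads per 100 gene reads in gemin2 and 11.2, 8.18 and 9.00 in WT. The sums did not overlap, but they include I006, which supplied most of them in gemin2. They therefore do not show that the FLK introns rose as a set, and I005 lay in the other direction.

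**Figure D2:**
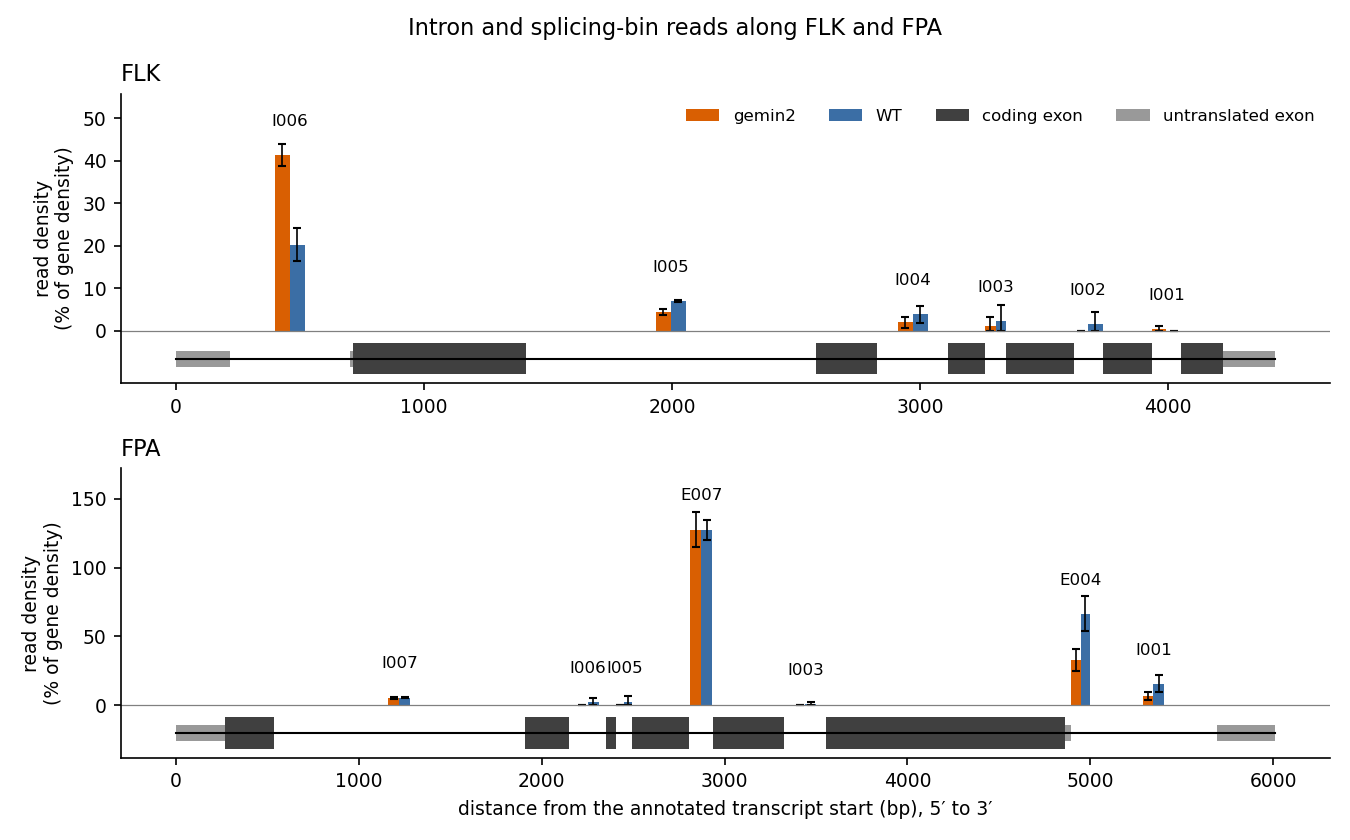
Read density of the introns (I) and splicing bins (E) of FLK and FPA as a percentage of gene density, gemin2 (orange, left bar) and WT (blue, right bar), mean and SD (n = 3 each), placed over a gene model drawn 5' to 3' in bp from the transcript start (bars are centred on each feature and not drawn to its width). FLK I006 stands at 41.3% in gemin2 and 20.2% in WT, and FPA E004 at 32.7% in gemin2 and 66.5% in WT.

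In FPA the lower values fell in the 3' untranslated region, where the deposited tables list the intron I001 (699 bp) and the intron retention bin E004 (99 bp). E004 had 4, 7 and 5 reads in gemin2, and 12, 11 and 13 reads in WT. All gemin2 libraries were below all WT libraries, and such non-overlap was found for 18.9% of all tested bins. Its log2 change relative to FPA was -0.98 (SE 0.412), with an unadjusted p of 0.0229 and an adjusted p of 0.237 in edgeR's quasi-likelihood test with Benjamini-Hochberg adjustment.

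I001 had 4, 10 and 10 reads in gemin2, and 26, 12 and 21 reads in WT. Its density was 3.61%, 8.39% and 8.85% in gemin2, and 20.2%, 8.32% and 18.2% in WT, so WT B lay within the gemin2 range. The log2 change was -1.12 (Benjamini-Hochberg adjusted p = 0.105 in edgeR's quasi-likelihood test), and it passed at -1.45 without WT B (adjusted p = 0.0317). It did not pass with any other library left out (adjusted p of 0.112 to 0.299), nor in DESeq2 (0.479).

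For the longer of the annotated introns, a stretch of 798 bp, the counts of E004 and I001 were added. This gave 8, 17 and 15 reads in gemin2 and 38, 23 and 34 reads in WT. Whether a read across the border of the parts was counted in both is not known. The joined intron was lower in gemin2 by a log2 change of -1.08 relative to FPA (Benjamini-Hochberg adjusted p = 0.0441 in edgeR's quasi-likelihood test), a test added after the values of its parts were seen. The authors' deposited lists of 321 bins and 1349 introns hold E004 and I001, with log2 changes of -1.24 and -1.33. These are headed as changes of the bin, and without the gene offset the changes here were -1.27 and -1.42. The authors' splicing index ratios were -1.01 for E004 and -1.07 for I001. Their heading for introns names a log without its base, and that for bins names no log. The long noncoding RNA gene AT2G09470 lies on the other strand at chr2:18025969-18026380, across all of E004 and part of I001. Where they overlap, its reads and those of the intron cannot be separated.

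The remaining FPA features showed values close to equal. I007, the first intron of FPA, in which early polyadenylation of FPA is known to occur, had 13, 11 and 13 reads in gemin2 and 13, 14 and 13 reads in WT. The log2 change relative to the gene was 0.06 (Benjamini-Hochberg adjusted p = 0.946 in edgeR's quasi-likelihood test). The coding bin E007 had a density of 127%, 141% and 115% in gemin2 and 135%, 120% and 127% in WT, with a log2 change of 0.01.

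LD E014, a retained 5' untranslated intron of 113 bp, had 16, 17 and 17 reads in gemin2 and 7, 9 and 11 reads in WT. Its density was 91.1%, 87.8% and 99.8% in gemin2, and 43.8%, 49.2% and 69.2% in WT. A density near 100% does not show full retention, because some short bins stood well above it. FCA E010 and E011, of 82 and 75 bp, averaged 263.7% and 310.5% in gemin2 and 223.6% and 247.5% in WT. The genotypes did not overlap for LD E014, while the level of LD itself was nearly equal. The log2 change relative to LD was 0.78 (SE 0.327), with an unadjusted p of 0.0231 and an adjusted p of 0.238 in edgeR's quasi-likelihood test with Benjamini-Hochberg adjustment. Neither E014 nor FPA E004 passed after adjustment, and DESeq2 called none of the 7 tested bins of the members.

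FCA E022, the large intron of 2075 bp, had 76, 80 and 78 reads in gemin2 and 63, 61 and 47 reads in WT. Its density was 36.9%, 36.7% and 34.4% in gemin2, and 37.5%, 32.0% and 30.6% in WT. The genotypes overlapped, and the log2 change relative to FCA was 0.11 (Benjamini-Hochberg adjusted p = 0.86 in edgeR's quasi-likelihood test). The alternative 3' site bin FCA E010 had a log2 change of 0.25 relative to the gene, the alternative 5' site bin E011 one of 0.35, FY E021 one of 0.24 and FLD I004 one of 0.23, none of which passed (adjusted p of 0.688 to 0.845 in edgeR's quasi-likelihood test). All 14 introns of FVE had at most 3 reads in every library, and none could be tested.

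**Figure D3:**
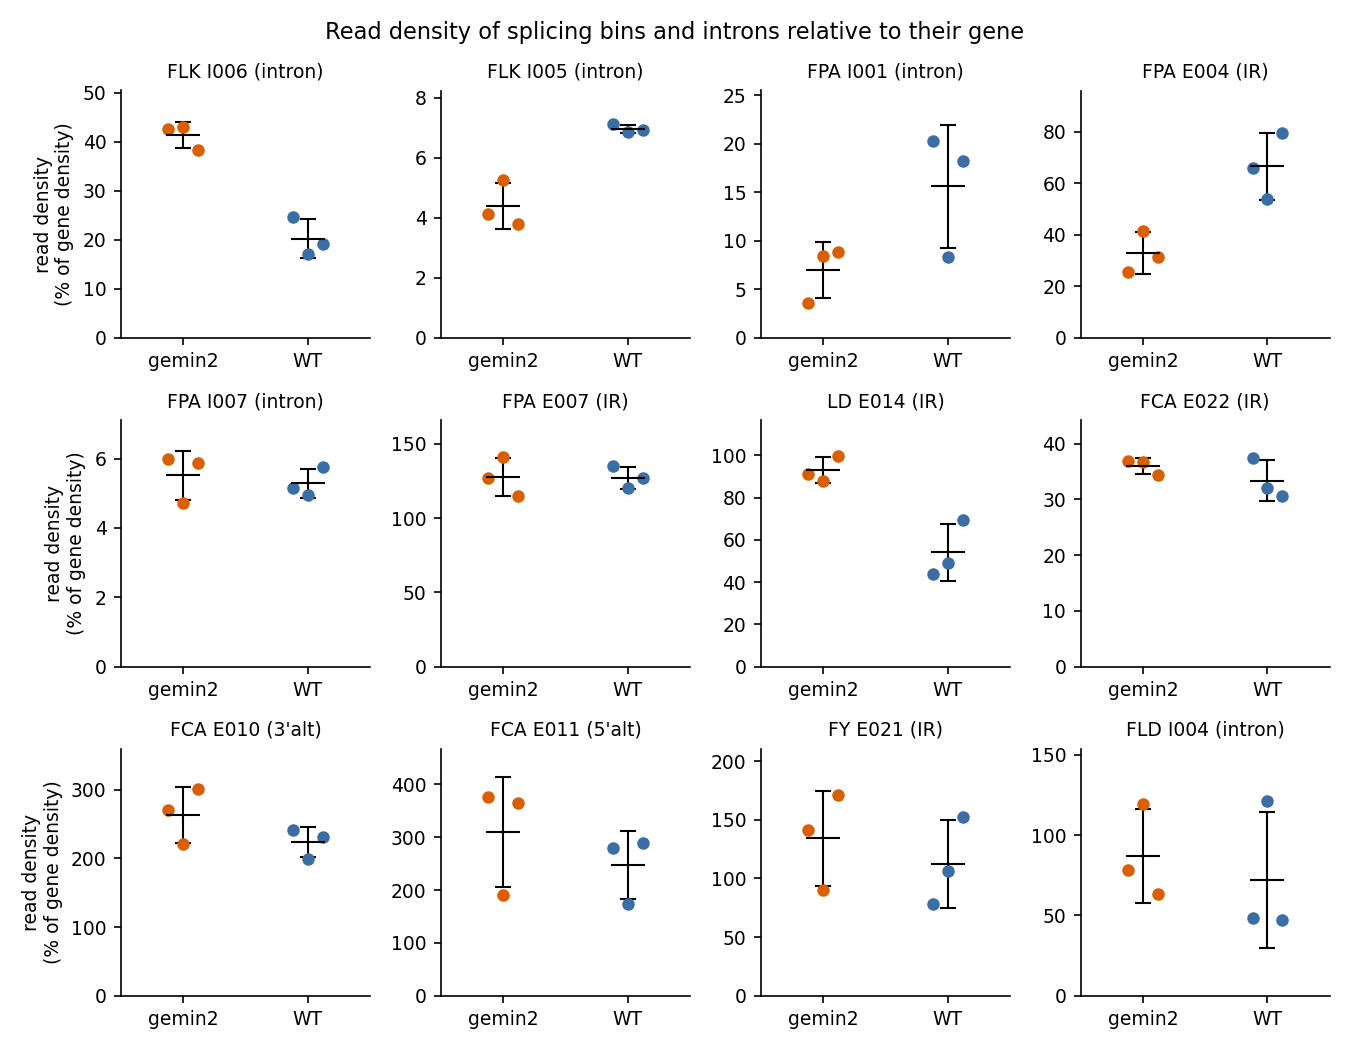
Read density of the 12 tested bins and introns of the members, in percent of the gene's density, in each library of gemin2 (left, orange) and WT (right, blue), with mean and SD (n = 3 each). FLK I006 and LD E014 are higher and FLK I005 and FPA E004 lower in gemin2 with no overlap, whereas FPA I007 and FCA E022 overlap.

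The partners of the pathway in RNA processing moved both ways and mostly did not pass. Of 15 genes for polyadenylation factors and related RNA-binding and spliceosomal proteins, 2 were higher, 3 were lower and 10 did not pass, with a median log2 fold change of -0.05. PRP8, the core protein of the spliceosome, rose by 0.45 on the log2 scale and HEN4, a KH domain protein, by 0.30. The polyadenylation factor genes CPSF30, CSTF64 and PCFS4 fell by 0.57, 0.33 and 0.21 on the log2 scale. CPSF30 averaged 12.2 ± 0.912 CPM in gemin2 and 18.0 ± 1.29 CPM in WT (SD, n = 3 each).

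Of 11 chromatin partners, 2 were higher, 1 was lower and 8 did not pass, with a median of 0.13. MSI1, a WD-repeat relative of FVE, rose by 0.31 and LDL1, a relative of FLD, by 0.25, while LDL3, another relative of FLD, fell by 0.25 on the log2 scale. Of 13 genes known to raise FLC, 4 were higher, 0 were lower and 9 did not pass, with a median of 0.11. The RNA-processing protein gene HUA2 rose by 0.41, VIP4 of the Paf1 complex by 0.34 and PIE1, a chromatin remodeller, by 0.32. The shares of genes called stand beside the 17.8% higher and 18.9% lower over all tested genes, and with lists of this size nothing particular to a list is read from them. The call of PCFS4 was lost in DESeq2 and without WT B (adjusted p = 0.0951) or gemin2 C (0.0521). That of LDL1 was lost in DESeq2 and without WT A (adjusted p = 0.0643) or gemin2 B (0.0564).

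FLC and most of its relatives, which act downstream of the pathway or beside it, were lower in gemin2. Of the 6 genes of the FLC clade of MADS-box repressors, 5 were lower, 0 were higher and 1 did not pass, with a median log2 fold change of -0.48. Over all tested genes 18.9% were lower and 17.8% higher. FLC itself had 8, 6 and 4 reads in gemin2 and 48, 53 and 27 reads in WT. All gemin2 libraries were well below WT, at a log2 fold change of -2.91 (SE 0.336, edgeR's quasi-likelihood test, Benjamini-Hochberg adjusted p = 9.07e-06). With few reads in gemin2 the size of the fall is known less well than its direction.

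FLM had 22.5, 23.0 and 23.1 CPM in gemin2 and 32.0, 31.1 and 30.3 CPM in WT, and fell by 0.44 on the log2 scale. MAF4 fell by 0.94, MAF3 by 0.51 and MAF2 by 0.40, and MAF5 had a log2 fold change of -0.28 that did not pass (Benjamini-Hochberg adjusted p = 0.349 in edgeR's quasi-likelihood test). In each of them, MAF5 included, the genotypes did not overlap, which held for 48.1% of all tested genes. MAF2 to MAF5 are neighbouring copies of similar sequence on chromosome 5, so their counts are uncertain where reads could fit more than 1 of them.

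Of 7 genes that gather flowering signals, 5 could be tested, of which 2 were higher, 1 was lower and 2 did not pass. Beside the 17.8% higher and 18.9% lower over all tested genes, nothing particular to this list is read from these counts. SOC1, a MADS-box promoter of flowering that FLC represses, had 26.5, 28.6 and 35.3 CPM in gemin2 and 18.6, 19.4 and 19.2 CPM in WT. All gemin2 libraries were higher, though spread more widely, and the log2 fold change was 0.66 (SE 0.0916, edgeR's quasi-likelihood test, Benjamini-Hochberg adjusted p = 5.16e-05).

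SVP, a MADS-box repressor that pairs with FLC, had 57.4, 56.9 and 57.3 CPM in gemin2 and 42.9, 41.7 and 45.8 CPM in WT, and rose by 0.40 on the log2 scale. AGL24, a promoter of flowering, had 1.95, 1.62 and 1.11 CPM in gemin2 and 4.98, 4.51 and 4.36 CPM in WT, and fell by 1.56 on the log2 scale. FT, the mobile flowering signal, had 2.28, 1.68 and 1.11 CPM in gemin2 and 1.26, 1.72 and 1.29 CPM in WT. Its genotypes overlapped, and the log2 fold change of 0.22 did not pass (Benjamini-Hochberg adjusted p = 0.572 in edgeR's quasi-likelihood test). TSF and LFY had too few reads for a test.

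**Figure D4:**
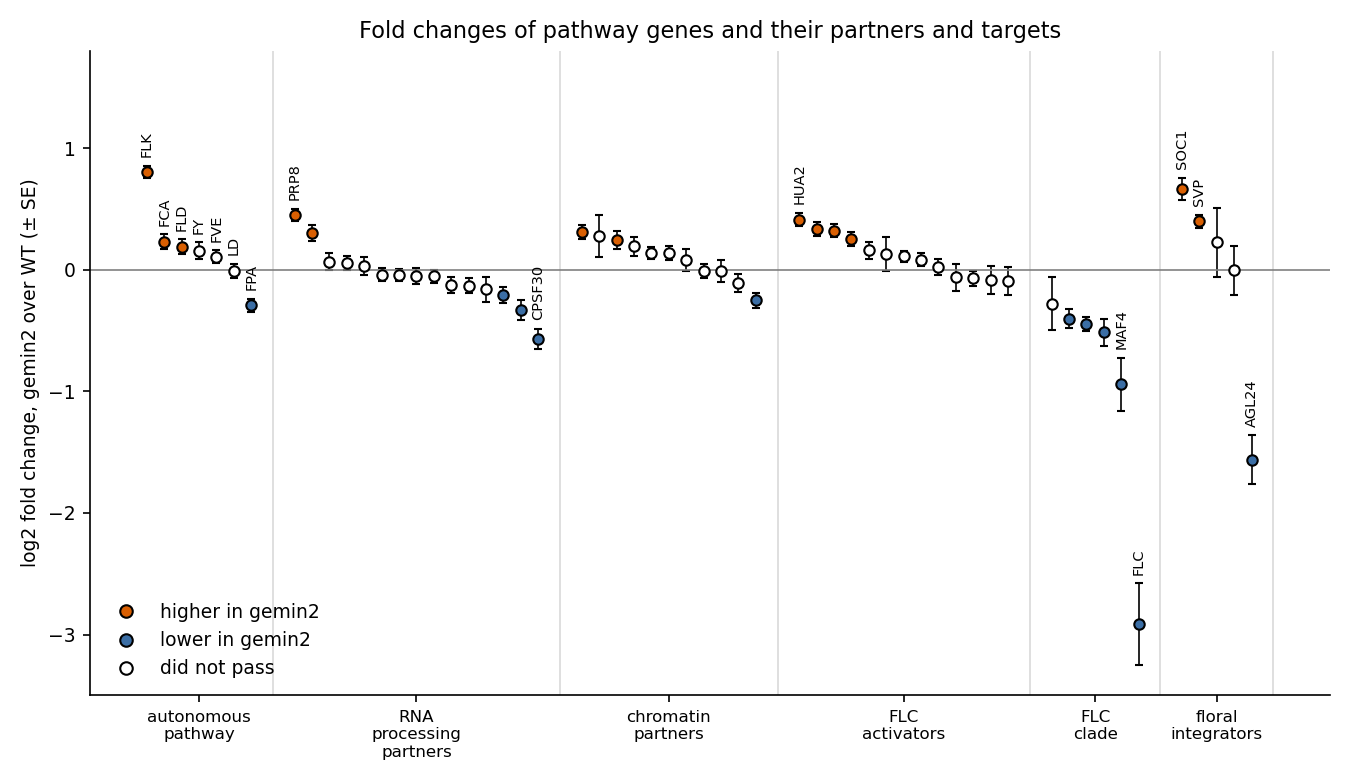
Log2 fold change of gemin2 over WT (vertical axis, ± SE) for the tested members and the genes of 5 related lists, ordered within each list from high to low; orange points passed as higher, blue as lower, and white points did not pass. FLK at 0.80 and FPA at -0.29 bound the members, and FLC at -2.91 is the lowest point.

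**Figure D5:**
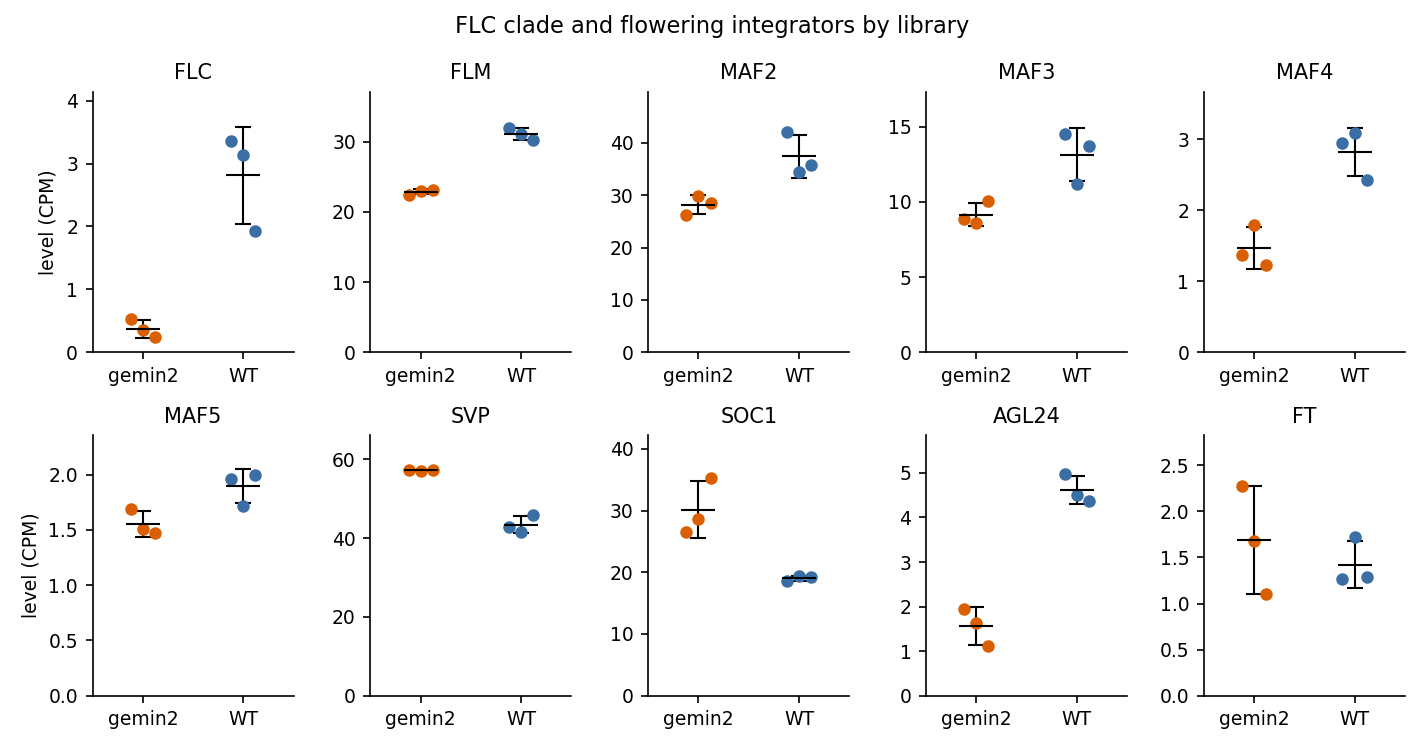
Level in CPM of the FLC clade, SVP, SOC1, AGL24 and FT in each library of gemin2 (left, orange) and WT (right, blue), with mean and SD (n = 3 each). FLC lies at 0.246 to 0.521 CPM in gemin2 and 1.93 to 3.37 CPM in WT, SOC1 and SVP are higher in gemin2, and FT overlaps.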

How the data were processed

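Polyadenylated RNA of 3 gemin2 and 3 WT whole-plant samples was sequenced from unstranded Illumina libraries, per the labels' protocols. Raw counts of reads for genes, splicing bins and introns were deposited, and tables of their own comparison with log2 changes and adjusted p-values, per the file headers. The build TAIR10, TopHat2 2.0.9, edgeR 3.4.2 and R 3.0.2 are named in the submitters' processing notes. The read counter, and how it treated reads with several matches, is not given in the sources used here. The intron table was used as far as its 65535 introns reach, on chromosomes 1, 2 and part of 3.

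For genes, edgeR 4.0.16 was run under R 4.3.3 (filterByExpr, minimum count 10, TMM, quasi-likelihood F test, gemin2 over WT, two-sided), with Benjamini-Hochberg adjustment over all genes tested and a threshold of 0.05. Levels in CPM were computed with TMM library sizes. Bins and introns (minimum count 5, mean of at least 20 reads for the gene) were tested in the same way over all features, with the log of the gene's count (0.5 added) as offset. Each SE was obtained by dividing the absolute log2 fold change by the root of F. The fits were tested on simulated counts with known changes. DESeq2 1.42.0 was an alternative. Density divides by the exon length deposited for the gene. RefSeq TAIR10.1 gave transcripts and sequences; intron ends read at the deposited coordinates were GT-AG for 98.5% of 65405 introns.

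The members and lists were chosen with earlier results of these data known. Named are all members, the genes of each list past the threshold with the largest log2 fold changes (at most 3 higher and 3 lower), FLC, and bins and introns that passed or had an unadjusted p under 0.05 with no overlap; the others named (FLM, MAF2, MAF5, FT, TSF, LFY, GRP7, HDA6, LDL2, SUF4, SWN, FPA I001, the remaining tested features) were named after their values were seen. Whole-plant markers were CAB1, RBCS1A and CA1 (leaf), SCR, TIP2;3, PHO1 and RHD6 (root), STM, WUS and CLV3 (shoot apex), AP1, AP3, PI, AG and SEP3 (flower), and CRA1, CRC, OLEO1 and SESA1 (seed). Alternatives were another scaling, DESeq2, robust dispersions, other filters and offsets, and leaving out each library.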

Additional observations from a re-analysis of the deposited data

How the results depend on the processing

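Of the member genes, FCA, FPA and FLK kept their direction and call in all 13 alternatives, with log2 fold changes of 0.20 to 0.27, -0.32 to -0.25 and 0.75 to 0.83. The call of FLD was lost in DESeq2 (adjusted p = 0.158) and without WT A, WT B, gemin2 B or gemin2 C (adjusted p of 0.0591 to 0.0685). Member introns called, 1 in the main test, numbered 0 in DESeq2, 3 with robust dispersions (1 higher, 2 lower), 2 with a minimum count of 20 (1 lower), 2 without the gene offset (1 lower), 2 with the FPA intron joined (1 lower), and 1 to 2 with a library left out (0 to 1 lower). FLK I005 passed with robust dispersions (adjusted p = 0.0307), with a minimum count of 20 (0.0424) and at -0.81 without gemin2 B (0.0443). It did not pass in DESeq2 (0.683), with no low-count filter (0.16) or with any other library left out (0.121 to 0.17). FPA I001 passed with robust dispersions (0.0494), without the gene offset (0.0305) and without WT B (0.0317). It did not pass in DESeq2 (0.479), with no low-count filter (0.0842) or with any other library left out (0.112 to 0.299). Member bins called, 0 in the main test, numbered 1 without the gene offset (1 lower), which was FPA E004 at -1.27 (adjusted p = 0.0368). Over all features, 219 bins and 465 introns were called; DESeq2 called 84 and 118, a minimum count of 20 gave 142 and 209, and 689 bins were called without the offset. DESeq2 scaling factors were not run for bins and introns, where the gene's reads take the place of library scaling. Of the partner genes, calls were gained by GRP7, at -0.19 (adjusted p = 0.011) against -0.04 in the main test, and SUF4, at 0.30 (0.00313) against 0.16, with intron and intron retention reads taken off the gene. They were also gained by HDA6 with robust dispersions (0.0475), with no low-count filter (0.0487) and without gemin2 C (0.00841), LDL2 without WT B (0.0492), SUF4 without WT A (0.0277) or gemin2 C (0.0259), and SWN, at 0.0506 in the main test, in 5 alternatives. The cause of these differences was not tested. Reads were few for some features: FPA E004 and LD E014 had at most 17 reads in any library. No paired analysis was possible because the columns of the count tables carry letters that are not linked to the labels' replicate numbers, and whether equal letters mark paired libraries is unknown.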
